A study of Mus musculus with 9 samples.

Results

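The replication-dependent histone cluster genes were followed in embryonic mouse lung before and after culture, with and without a DOT1L inhibitor. They were the rows whose gene name began with Hist1h, Hist2h, Hist3h or Hist4h, leaving out names that ended in -ps, of which there was 1. The rule gave 69 of 55286 genes. By histone type these were 6 H1, 20 H2A, 18 H2B, 12 H3 and 13 H4 genes, and by cluster 56 carried the prefix Hist1, 10 Hist2, 2 Hist3 and 1 Hist4. GENCODE annotated 2 of the H2A genes, Hist1h2aj and Hist1h2al, as pseudogenes.

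Core histones H2A, H2B, H3 and H4 form the protein spool of the nucleosome, and the linker histone H1 binds the DNA where it enters and leaves. Most of these proteins are made in S phase from clustered genes without introns, whose mRNAs end in a conserved stem-loop in place of a poly(A) tail. The stem-loop is bound by SLBP and cut by machinery that includes the U7 snRNP, and some of the genes can also give longer polyadenylated mRNAs, in cells that have stopped dividing among others. DOT1L, the enzyme inhibited here, methylates histone H3 at a lysine in the nucleosome core.

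RNA-seq was made from 9 libraries of wild-type mouse lung, in 3 groups of 3. The E11.5 group was fresh lung of embryos at stage E11.5, the Control group was E11.5 lung explants cultured for 72 h without the agent, and the EPZ5676 group was such explants cultured with EPZ5676, also named pinometostat. The title of the series gives its question as lung branching and epithelial proliferation after DOT1L inhibition. The strain, the dose and the number of embryos behind a library are not given in the sources used here, nor whether replicates were separate litters or cultures, so p-values measure only the spread between these libraries.

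Libraries held 6509563 to 9861452 expected counts, of which the histone cluster genes took 341 to 805, or 51.4 to 119 CPM (counts scaled to equal library totals). The lung labels were met by epithelial and mesenchymal markers in every library: 6 epithelial genes summed to 271 to 279 TPM in E11.5, 503 to 817 in Control and 712 to 971 in EPZ5676. The sum of 6 mesenchymal genes was 850 to 1024, 1448 to 1792 and 1478 to 1639 TPM, in the same order of groups. Fresh and cultured lung differed in other cells as well. The sum of 6 erythroid genes was 16667 to 23795 TPM in E11.5, 105 to 912 in Control and 62.9 to 944 in EPZ5676, and that of 5 endothelial genes was 143 to 160, 6.94 to 58.1 and 12.3 to 40.3 TPM. All 6 erythroid and all 5 endothelial genes fell in Control against E11.5 by edgeR, beside 16.6% of all genes tested. All 6 epithelial genes rose, beside 21.1%, while of the 6 mesenchymal genes 3 rose and 2 fell. One library stood apart: Control 1 held 190 TPM of 5 liver genes, against 1.07 to 20.9 in the other libraries. The part of these cells in the histone values was not tested, and in bulk tissue fewer cells of a type and less RNA per cell cannot be told apart.

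The annotated transcripts of these genes fell into different shapes at the 3′ end. Whether the shape bears on which of them the libraries measured was not tested. A stem-loop of 16 bases (a 6-base stem around a 4-base loop that begins TTT, the first bases GG) was found in a transcript of 44 of the 69 genes, 63.8%. The same pattern was found in 35 of 55381 other GENCODE M21 genes, 0.0632%. The commonest form, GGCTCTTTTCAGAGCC, was in 26 genes of H1, H2A, H2B and H3, whereas the H4 genes carried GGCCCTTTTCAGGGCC in 7, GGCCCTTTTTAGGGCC in 2 and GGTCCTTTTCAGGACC in 2. The following lines give the stem-loops, in capitals and 5′ to 3′ with 5 bases on each side, of the genes that the results turn on, read from the GENCODE M21 transcripts.
Hist1h1c: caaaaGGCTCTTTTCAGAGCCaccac
Hist1h1d: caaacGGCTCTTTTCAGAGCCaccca
Hist3h2a: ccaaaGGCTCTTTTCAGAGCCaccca
Hist3h2ba: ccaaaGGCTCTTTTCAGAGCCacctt
Hist1h2ag: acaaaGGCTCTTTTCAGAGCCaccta
Hist1h4i: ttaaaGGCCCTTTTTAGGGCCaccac
Hist1h4n: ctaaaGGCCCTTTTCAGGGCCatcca
The transcripts differed in what follows this element. Only 23 bases followed it in Hist1h2ag and 31 in Hist1h4n, so these models end soon after it. In contrast, 169 bases followed it in Hist3h2ba, 330 in Hist1h4i, 840 in Hist1h1c, 1643 in Hist3h2a and 4884 in Hist1h1d. No stem-loop was found in the spliced 1156-base transcript of Hist1h2bc or the 2620-base transcript of Hist2h2be. Hist1h1c, Hist1h2bc and Hist2h2be are known to make polyadenylated mRNAs too.

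The promoters set the histone types apart by short motifs. RefSeq windows of 300 bases, 250 before to 50 after the start (GRCm38.p6), matched 62 of the 69 genes, and motifs were searched on both strands. CCAAT was in all 50 windows of H1, H2A, H2B and H3 but in 3 of 12 of H4, against 37.4% of 32851 windows of all genes. TATAAA was in 56.5% of the histone windows and 13.6% of all. The octamer ATTTGCAT was in 7 of 18 H2A and 6 of 16 H2B windows and in none of the other types, against 1.74% of all windows. The H1 box AAACACA was in 5 of 6 H1 windows, against 7.18% of all windows. It was also in 2 of 18 H2A and 2 of 16 H2B windows, and in none of H3 or H4. The 160 bases before the start follow for 2 genes that were higher in culture and for the most abundant H4 gene, 5′ to 3′ on the gene's strand, with matches to the 4 motifs on either strand in capitals.
Hist1h1c, chr13:23738647-23738806, plus strand: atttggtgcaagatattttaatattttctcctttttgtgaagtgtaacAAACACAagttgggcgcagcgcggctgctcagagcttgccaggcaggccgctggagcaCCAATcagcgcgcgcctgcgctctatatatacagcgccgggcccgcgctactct
Hist3h2a, chr11:58954525-58954684, plus strand: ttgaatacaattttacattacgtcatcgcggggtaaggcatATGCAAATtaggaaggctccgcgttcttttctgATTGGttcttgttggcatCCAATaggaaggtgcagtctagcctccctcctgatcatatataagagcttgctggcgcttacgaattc
Hist1h4i, chr13:22041363-22041522, minus strand: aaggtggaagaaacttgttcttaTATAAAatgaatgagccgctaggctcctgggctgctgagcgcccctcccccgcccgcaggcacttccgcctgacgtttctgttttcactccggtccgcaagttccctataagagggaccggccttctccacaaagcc
Hist1h1c holds the H1 box and a CCAAT, Hist3h2a holds the octamer in reverse with CCAAT on each strand, and Hist1h4i holds TATAAA and no CCAAT in these bases. A match is a description of letters, not of a bound site.

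Read sharing limited which single genes could be read. Across the 69 genes, a median of 49.7% of the 50-base stretches of the transcripts also occurred in another gene. The medians were 1.13% for H1, 73.2% for H2A, 46.9% for H2B, 62.0% for H3 and 39.5% for H4. The 34 genes with more than 50% shared held 15.7% of the histone counts, and the 4 genes with none shared were Hist2h2be, Hist1h1a, Hist1h1b and Hist1h1t. RSEM divided reads between copies: 70.5% to 84.4% of the histone values above 0 were not whole numbers, against 31.7% to 37.9% over all genes.

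**Figure D1:**
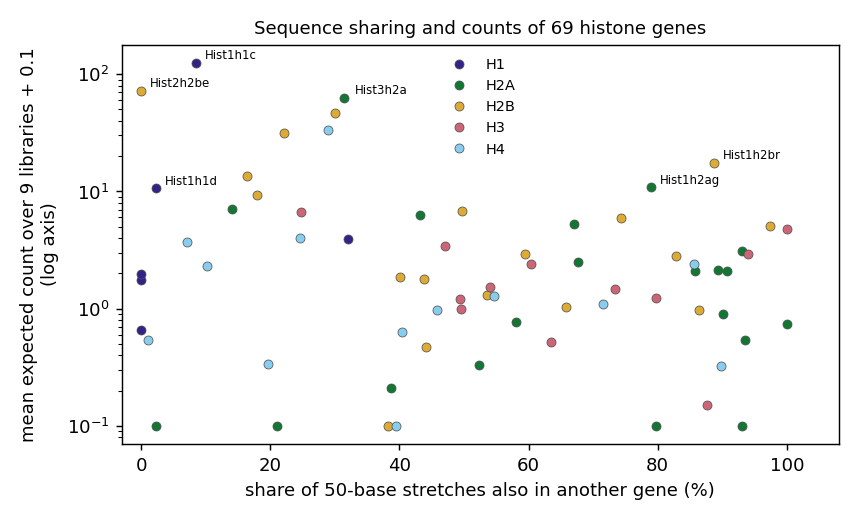
Each point is 1 of the 69 histone genes, coloured by type. The x axis is the share of its 50-base stretches that also occur in another gene (%), and the y axis the mean expected count over 9 libraries plus 0.1, on a log axis. The highest counts, Hist1h1c, Hist2h2be and Hist3h2a, lie at 31.5% shared or less, and Hist1h2br and Hist1h2ag lie at 88.7% and 78.9%.

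Few of the genes were well measured. The value was 0 in all 9 libraries for 6 genes (Hist1h2aa, Hist1h2af, Hist1h2aj, Hist1h2ba, Hist1h4f and Hist2h2ab), above 0 in some libraries for 46, and above 0 in all 9 for 17. A count of 0 allows a level of up to 0.304 to 0.461 CPM, taking 3 counts as the limit. A mean of at least 10 counts was reached by 10 genes: Hist1h1c, Hist1h1d, Hist1h2ag, Hist3h2a, Hist1h2bc, Hist1h2be, Hist1h2br, Hist2h2be, Hist3h2ba and Hist1h4i. Per transcript length, the 10 genes with the highest mean TPM held 61.9% of the summed histone TPM, and Hist1h1c alone held 13.2%.

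Linker histone H1 was the type whose level separated fresh from cultured lung. The summed TPM of the 6 H1 genes was 10.32, 7.65 and 9.71 in E11.5, 21.18, 21.41 and 18.26 in Control, and 21.69, 43.01 and 32.22 in EPZ5676. The group means were 9.23 ± 1.40, 20.3 ± 1.76 and 32.3 ± 10.7 TPM (SD, n = 3 each). Every cultured library lay above every fresh one, and the lowest EPZ5676 library lay just above the highest Control library. On the log2 scale the ratio of mean TPM was 1.14 ± 0.25 for Control against E11.5 and 0.67 ± 0.49 for EPZ5676 against Control (propagated SD).

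The core histone types showed no such separation. The H2A sum was 35.2 ± 6.54 TPM in E11.5, 27.5 ± 6.90 in Control and 30.9 ± 2.48 in EPZ5676 (SD, n = 3 each). The H2B sum was 58.9 ± 13.9, 51.0 ± 3.36 and 63.3 ± 10.3 TPM, and the H4 sum 21.6 ± 7.60, 18.3 ± 4.61 and 20.8 ± 8.31 TPM. The H3 sum, the lowest of the core types, was 13.0 ± 5.78, 7.41 ± 1.63 and 9.05 ± 0.86 TPM. Fresh and cultured libraries overlapped in each of the 4 types. As a share of all histone TPM, H1 was 7.05% ± 2.61 in E11.5, 16.3% ± 1.01 in Control and 20.3% ± 3.36 in EPZ5676, while H2B was 42.6% ± 2.04, 41.1% ± 4.26 and 40.5% ± 2.75.

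**Figure D2:**
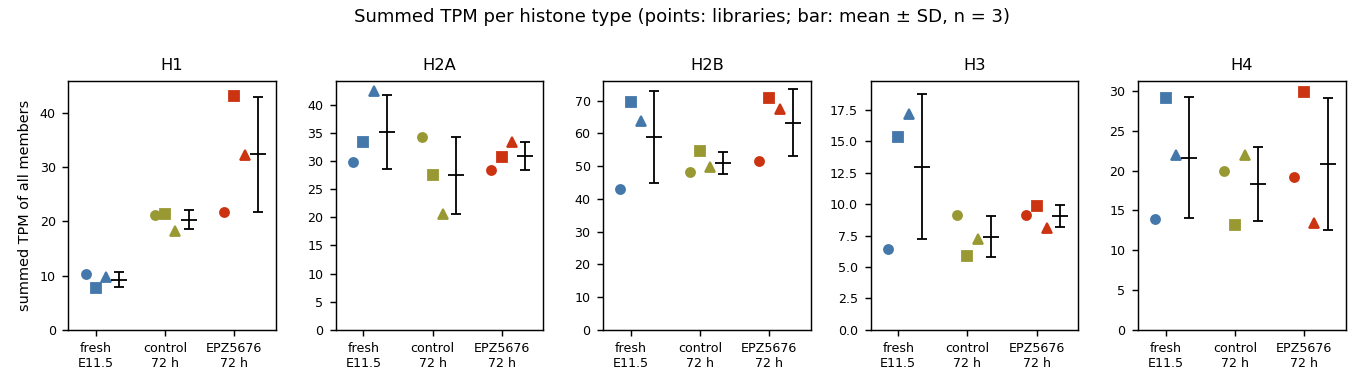
Summed TPM per histone type (y axis, from 0) by group (x axis); each point is a library and the bar is the mean ± SD (n = 3). H1 ran from 7.65 to 10.32 TPM in fresh lung and from 18.26 to 43.01 in cultured lung, while the groups overlapped in H2A, H2B, H3 and H4.

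The sum over all 69 genes turned with the unit for Control against E11.5. It was 138 ± 29.8 TPM in E11.5, 124 ± 7.68 in Control and 156 ± 27.1 in EPZ5676. The log2 ratio of Control to E11.5 was -0.15 ± 0.32 in TPM but 0.31 ± 0.18 in TMM-scaled CPM, which give long transcripts more weight. For EPZ5676 it had the same direction in TPM and CPM, at 0.33 ± 0.27 and 0.38 ± 0.35 against Control, and 0.18 ± 0.40 and 0.69 ± 0.38 against E11.5. For H2A in Control against E11.5 the pair of values was -0.36 ± 0.45 and 0.22 ± 0.21, whereas for H1 it was 1.14 ± 0.25 and 1.21 ± 0.35.

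A single gene made up most of the H1 signal. Hist1h1c encodes H1.2, a common somatic linker histone, and held 89.2% of the H1 TPM (chromosome 13, 23738808 to 23740367, plus strand, 1 exon, GRCm38). Its TPM was 9.71, 4.37 and 5.80 in E11.5, 19.43, 19.14 and 16.91 in Control, and 19.09, 40.49 and 30.48 in EPZ5676. Every cultured library was higher than every fresh one. Control and EPZ5676 touched, because EPZ5676 1 lay within the Control range while the other 2 treated libraries lay above it. Only 8.54% of its 50-base stretches occurred elsewhere, in Hist1h1d and Hist1h1e.

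Hist1h1d, which encodes the linker histone H1.3, was sparse, and it entered the tests below only through its counts in the EPZ5676 libraries. Its expected counts were 6, 4 and 5.04 in E11.5, 10, 6 and 5.01 in Control, and 16, 21.02 and 22.01 in EPZ5676. In TPM these were 0.13 to 0.19, 0.14 to 0.22 and 0.41 to 0.64. The treated libraries lay above all others, and E11.5 and Control overlapped. Its low TPM goes with a 7425-base transcript model (chromosome 13, 23553262 to 23560686, plus strand), most of which follows the stem-loop. The other H1 genes stayed near the limit of counting. Hist1h1a and Hist1h1b, which encode further replication-dependent subtypes, had at most 3 and 4 counts in any library, and their TPM reached 1.20 and 1.61. Hist1h1e, named here after its values were seen, had at most 8 counts. It had 0.42 to 1.05 TPM in E11.5, 0.14 to 0.89 in Control and 0.14 to 0.36 in EPZ5676. Its treated libraries lay below all fresh ones, and Control overlapped with both.

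Among the H2A genes, Hist3h2a and Hist1h2ag were the 2 with a mean of at least 10 counts, and they lay on different sides of their fresh levels. Hist3h2a, an H2A gene outside the large cluster (chromosome 11, 58954685 to 58956830, plus strand), had 4.47, 3.62 and 3.39 TPM in E11.5, 8.92, 8.14 and 6.98 in Control, and 7.28, 8.88 and 6.30 in EPZ5676. All 6 cultured libraries were higher than the 3 fresh ones, and the cultured groups overlapped. Hist3h2a overlaps Trim17 on the same strand, which had at most 0.54 TPM, and Gm44313 on the opposite strand. Gm44313 had 0, 25.15 and 11.64 TPM in E11.5, 0, 5.58 and 34.86 in Control, and 0 in each EPZ5676 library. No source used here gives the strand setting, and reads of overlapping genes therefore cannot be told apart.

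Hist1h2ag, a short H2A gene of the large cluster (chromosome 13, 22042460 to 22042944, minus strand), had 8.88, 9.77 and 13.82 TPM in E11.5, 7.55, 6.84 and 3.48 in Control, and 6.75, 3.25 and 4.34 in EPZ5676. All fresh libraries lay above all cultured ones. It shares 78.9% of its 50-base stretches with other genes, Hist1h2ao and Hist1h2ap first, so the division of its reads is uncertain. Hist1h2al, annotated as a processed pseudogene, had 2.26, 1.30 and 2.58 TPM in E11.5, 1.15, 0 and 3.62 in Control, and 3.39, 6.15 and 6.40 in EPZ5676. The EPZ5676 and Control ranges overlapped, with 67.6% of this gene's stretches shared with Hist2 genes and others. Hist1h2ae, named here after its values were seen, had 3.84, 4.35 and 8.10 TPM in E11.5, 0.37, 1.28 and 0.96 in Control, and 1.30, 1.78 and 0.97 in EPZ5676. Its fresh libraries were all above the cultured ones.

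The H2B genes gave the largest sum, led by 3 genes. Hist3h2ba (chromosome 11, 58948920 to 58949533, plus strand) had 9.62, 10.20 and 5.63 TPM in E11.5, 12.89, 11.28 and 20.27 in Control, and 18.36, 22.50 and 19.31 in EPZ5676. Fresh libraries lay below all cultured ones, and Control 3 lay within the EPZ5676 range. Hist1h2bc, which encodes H2B from a spliced transcript of 2 exons (chromosome 13, 23684199 to 23692908, plus strand), had 5.28, 5.78 and 5.61 TPM in E11.5, 11.21, 11.62 and 9.24 in Control, and 12.18, 15.98 and 10.82 in EPZ5676. The fresh libraries were tightly grouped, at 5.56 ± 0.25 TPM, and lay below every cultured library.

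Hist2h2be was the H2B gene with the firmest identity, with no stretch shared with another gene (chromosome 3, 96221119 to 96223738, plus strand). It had 5.33, 6.41 and 5.29 TPM in E11.5, 6.97, 7.89 and 3.84 in Control, and 6.37, 5.95 and 7.29 in EPZ5676. The 3 groups overlapped. The neighbouring copies Hist1h2bq and Hist1h2br share 97.3% and 88.7% of their stretches. Hist1h2br had 3.01, 3.76 and 4.36 TPM in E11.5, 3.15, 3.72 and 2.28 in Control, and 3.88, 6.10 and 9.02 in EPZ5676.

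For Hist1h2br the counts and the TPM gave different pictures. Its CPM per TPM, which scales the expected counts by each library's total, varied 7.27-fold between libraries, from 0.155 to 1.12, whereas for Hist1h1c it varied 1.17-fold. Its annotated transcripts run from 381 to 2197 bases, and RSEM can assign reads to either length. Summed over both copies, Hist1h2bq and Hist1h2br had 6.76 ± 1.06 TPM in E11.5, 5.93 ± 1.76 in Control and 9.64 ± 5.56 in EPZ5676. As counts the sum was 28.39, 15.27 and 6.91 in Control and 35.97, 26.52 and 40.86 in EPZ5676, so Control 1 lay above EPZ5676 2 and the groups overlapped.

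The H3 genes, which encode the substrate of DOT1L, were the least measured. None of the 12 was above 0 in all 9 libraries, and none had a mean of 10 counts. Hist1h3h had 0.64, 0 and 5.61 TPM in E11.5, 2.97, 0.44 and 2.17 in Control, and 5.99, 0 and 3.31 in EPZ5676. Hist1h3c had 0.49, 2.94 and 4.24, then 2.80, 1.56 and 0, then 0.47, 0.67 and 0.47 TPM, in the same order of groups. Hist1h3d had 0, 0.99 and 0.87, then 0.86, 0.79 and 2.12, then 1.03, 3.20 and 1.41 TPM. Control overlapped with each other group in all 3 genes. EPZ5676 overlapped with E11.5 in Hist1h3h and Hist1h3c, and its lowest Hist1h3d library, 1.03 TPM, lay just above the highest fresh one.

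Most of the H4 signal came from Hist1h4i, which held 61.4% of the H4 TPM (chromosome 13, 22040636 to 22041362, minus strand). It had 4.84, 18.48 and 12.18 TPM in E11.5, 15.23, 8.58 and 16.08 in Control, and 9.81, 20.86 and 5.96 in EPZ5676, with more than 3-fold spread inside the fresh and the treated group. The 3 groups overlapped. Hist1h4n, whose short transcript ends soon after its stem-loop, had 3.69, 6.21 and 4.30 TPM in E11.5, 0, 0 and 0.82 in Control, and 1.53, 0 and 0.83 in EPZ5676. The fresh libraries rested on 4.30 to 7.14 counts each, and 85.6% of its stretches are shared, mostly with Hist1h4m. Summed over Hist1h4m and Hist1h4n the level was 4.73 ± 1.31 TPM in E11.5, 0.60 ± 0.53 in Control and 1.09 ± 0.38 in EPZ5676, with all fresh libraries above all cultured ones. Hist1h4k was at 0 in the fresh libraries, 1.15, 1.59 and 0 TPM in Control, and 3.63, 4.72 and 1.67 in EPZ5676, on at most 3.15 counts in any library, and no fold is given against a group at 0.

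**Figure D3:**
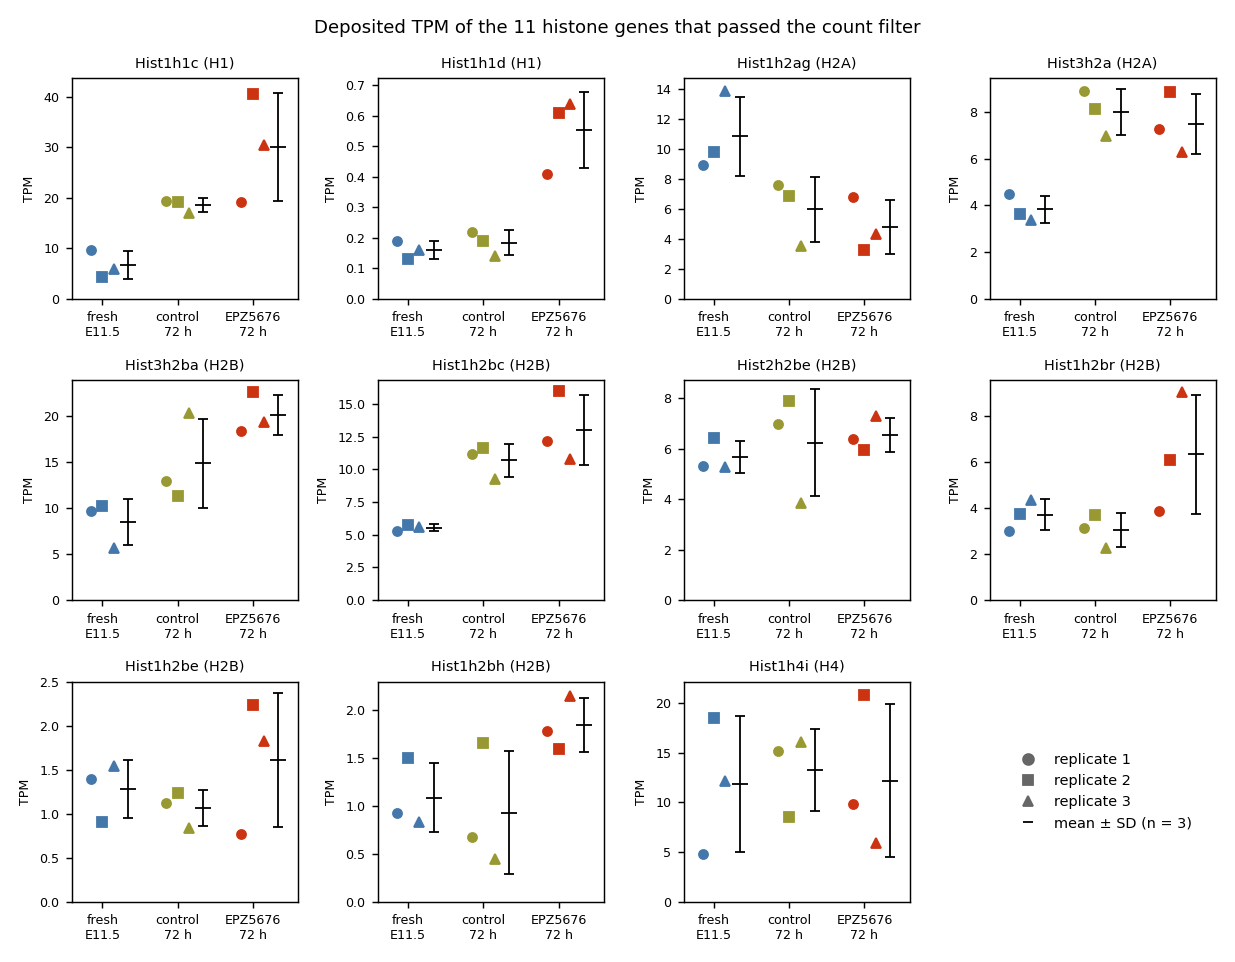
TPM (y axis, from 0) of the 11 histone genes with enough counts to test, by group (x axis); symbols are replicates and bars the mean ± SD (n = 3). Hist1h1c, Hist3h2a, Hist3h2ba and Hist1h2bc were higher in every cultured than in every fresh library, Hist1h2ag was lower, and Hist2h2be, Hist1h4i and Hist1h2be overlapped.

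Culture was compared with fresh lung to see what 72 h of explant growth goes with, the agent aside. Hist1h1c, Hist3h2a and Hist1h2bc rose, and no tested histone gene fell. Only 11 of the 69 genes passed the filter on low counts, holding 79.3% of the histone counts, so 58 genes were not tested there. The gene just inside the filter, Hist1h2bh, had 82.8 counts over the 9 libraries, and the gene just outside, Hist1h2ac, had 62.5. By edgeR's quasi-likelihood test, 3 of the 11 were higher at a Benjamini-Hochberg adjusted p under 0.05, against 21.1% of the 15158 genes tested, and 0 were lower, against 16.6%. DESeq2 also called 0 lower, against 17.1%, and 5 of the 11 had an unadjusted edgeR p under 0.05 in either direction, as did 7141 of the 15158. Filtering favours genes that are high in some group, so these counts are not support for a direction of the family.

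The rise was largest for Hist1h1c, with a log2 fold change of 1.52 ± 0.34 (SE) and an edgeR adjusted p of 0.00656. Hist3h2a rose by 1.09 ± 0.21 with an adjusted p of 0.00284 in edgeR. Hist1h2bc rose by 0.98 ± 0.24, with an adjusted p of 0.00871 in edgeR. Without Control 1, the library with liver transcripts, the edgeR log2 fold changes of Hist1h1c, Hist3h2a and Hist1h2bc were 1.57, 1.10 and 1.04, and all 3 still passed. Hist3h2ba, at 0.84 ± 0.37, and Hist1h2ag, at -0.93 ± 0.40, did not pass, with edgeR adjusted p values of 0.0970 and 0.0894. For Hist2h2be the value was 0.16 ± 0.23, and for Hist1h4i 0.20 ± 0.55.

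Most of the histone genes could be compared by their TPM ranges alone. Of the 60 genes above 0 in either group, 6 (10%) were higher in all Control than in all E11.5 libraries, against 11.9% of 29194 genes. They were Hist1h1c, Hist1h2ah, Hist1h2bc, Hist2h3c1, Hist3h2a and Hist3h2ba. Another 6 (10%) were lower, against 16.0%: Hist1h2ae, Hist1h2ag, Hist1h2bk, Hist1h3b, Hist1h4n and Hist2h3b. Both shares were below those of all genes. The mean TPM was higher in Control in 18 and lower in 42 of the 60 genes (70.0% lower, against 54.8% of all genes). Lower means were more frequent than higher ones in each type, many of them on a few counts. They were found in 4 of 6 H1, 10 of 14 H2A, 13 of 17 H2B, 9 of 12 H3 and 6 of 11 H4 genes, and the H4 share was close to that of all genes. H1 therefore had more genes with a lower than a higher mean, and its sum was higher through Hist1h1c. With no filter on low counts, edgeR tested 62 histone genes and called 4 higher (10.3% of all 30385 genes) and 3 lower (7.24%), adding Hist1h2ah to the higher ones and calling Hist1h2ae, Hist1h3b and Hist1h4n lower.

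EPZ5676 was compared with control culture, the question of the series. No histone gene passed the test, and the genes that came nearest were Hist1h1d, Hist1h2br and Hist1h1c, each with a higher mean in the treated libraries. By edgeR, 0 of the 11 tested genes were higher and 0 lower at an adjusted p under 0.05, against 0.0% of all 15158 genes. Of the 11, 2 had an unadjusted edgeR p under 0.05, as did 1052 of all genes. DESeq2 called 0 histone genes and 83 genes in all, 0.548%.

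Hist1h1d had the smallest p, with a log2 fold change of 1.55 ± 0.37 and an edgeR adjusted p of 0.291. It passed the count filter only through the EPZ5676 libraries, at 16 to 22.01 counts, against 5.01 to 10 in Control. Its rank is therefore not support for a rise. Hist1h2br followed at 1.76 ± 0.53, with an edgeR adjusted p of 0.471 and the division of reads described above. Hist1h1c was at 0.68 ± 0.31, with an edgeR adjusted p of 0.723. Without EPZ5676 2, the library with the highest histone share of counts, its log2 fold change was 0.36. Hist3h2a and Hist2h2be were at -0.11 ± 0.20 and 0.06 ± 0.22. By TPM ranges, 4 of 60 genes (6.67%) were higher in all treated than in all Control libraries, against 4.75% of 28722 genes, namely Hist1h1d, Hist1h2ac, Hist1h2br and Hist1h4k. Hist1h2bj alone, 1.67%, was lower, against 2.50%. The mean TPM was higher in EPZ5676 in 35 and lower in 25 of the 60 genes (41.7% lower, against 45.9% of all genes).

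EPZ5676-treated explants were also set against fresh lung, a comparison that shares its libraries with both others and is no independent evidence. Hist1h1c, Hist1h1d, Hist1h2bc, Hist3h2a and Hist3h2ba rose and Hist1h2ag fell. By edgeR these were 5 of 11 higher at an adjusted p under 0.05, against 22.1% of all genes, and 1 of 11 lower, against 17.9%. Hist1h1c rose by 2.20 ± 0.34 on the log2 scale, with an edgeR adjusted p of 0.000722. Hist1h1d rose by 1.80 ± 0.39, with an edgeR adjusted p of 0.00430. That call was lost by limma on log2(TPM + 1), at an adjusted p of 0.0561. Hist1h1d passed the count filter only through the EPZ5676 libraries, so its call is not support for a direction. Hist1h2bc rose by 1.24 ± 0.24, with an edgeR adjusted p of 0.00223, and Hist3h2a by 0.98 ± 0.21, with 0.00460.

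The calls of the other 2 genes rested on single libraries. Hist3h2ba rose by 1.21 ± 0.36 with an edgeR adjusted p of 0.0224, which was 0.0932 without E11.5 3, 0.0655 without EPZ5676 2 and 0.0505 without EPZ5676 3. Hist1h2ag, at -1.22 ± 0.41 with an edgeR adjusted p of 0.0352, had 0.0844 by DESeq2. Its call was lost without E11.5 2, E11.5 3, EPZ5676 2 or EPZ5676 3, where the edgeR adjusted p reached 0.145. Hist1h2ag passed the count filter, which scales for depth, only through the fresh libraries, at 12.47 to 19.36 counts. Its call is therefore not support for a direction. By TPM ranges, 10 of 62 genes (16.1%) were higher in all treated than in all fresh libraries and 9 (14.5%) lower, against 15.6% and 17.1% of 29277 genes.

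**Figure D4:**
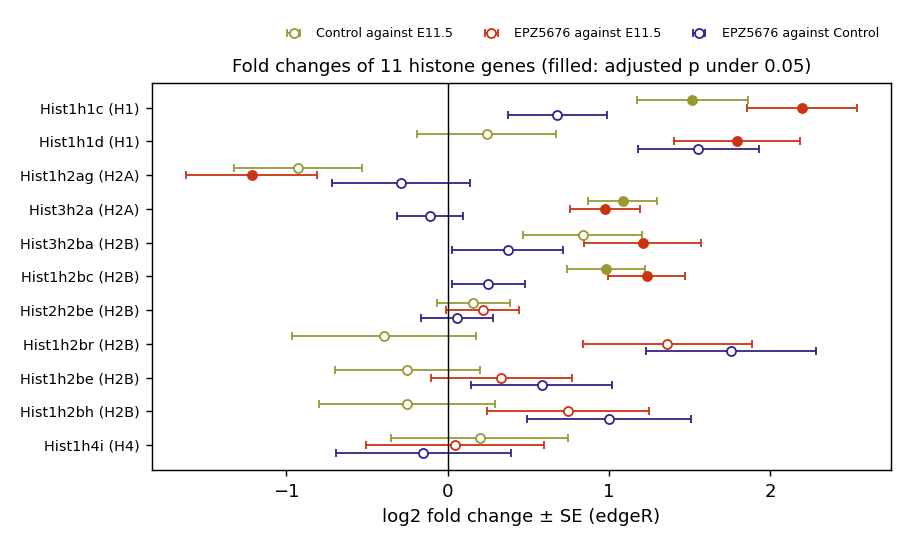
Log2 fold change ± SE from edgeR (x axis) of the 11 tested histone genes (y axis) in 3 comparisons that share libraries; filled points have an adjusted p under 0.05. Hist1h1c, Hist3h2a and Hist1h2bc are filled in both comparisons with fresh lung, and no point is filled for EPZ5676 against Control.

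The sums were also set out by the shape of the annotated transcript, a split made after the values were seen and therefore given with no test. Transcript models were called extended where at least 100 bases follow the stem-loop, or where there is no stem-loop and the longest transcript has at least 1000 bases. The 26 extended genes held 87.1% of the histone counts and 64.3% of the TPM, and the other 43 were called compact. The extended sum was 56.95, 69.15 and 63.57 TPM in E11.5, 88.25, 84.52 and 92.24 in Control, and 90.49, 148.27 and 114.01 in EPZ5676. The compact sum was 46.66, 85.93 and 91.63 TPM in E11.5, 44.60, 38.26 and 25.53 in Control, and 39.55, 35.98 and 40.83 in EPZ5676. Every cultured library was thus above every fresh one for extended models and below every fresh one for compact models, though E11.5 1 was only just above Control 1.

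Within the types the split was uneven. Compact H2B genes had 28.3 ± 13.6 TPM in E11.5, 8.22 ± 4.48 in Control and 6.01 ± 1.31 in EPZ5676, and extended H2B genes 30.6 ± 2.92, 42.7 ± 3.36 and 57.3 ± 11.3. Compact H4 genes had 8.04 ± 1.24, 3.36 ± 1.05 and 5.35 ± 2.20 TPM, and EPZ5676 2, at 7.64 TPM, lay within the fresh range. Extended H4 genes, at 13.6 ± 6.72, 14.96 ± 3.82 and 15.5 ± 6.13 TPM, overlapped between groups. Extended H2A genes, at 9.81 ± 1.99, 9.18 ± 0.86 and 9.88 ± 1.92 TPM, overlapped too. Compact H2A genes, at 25.4 ± 4.67, 18.3 ± 6.26 and 21.04 ± 3.80 TPM, overlapped between groups. Of the compact genes above 0 in either group, the Control mean was higher in 6 and lower in 29 of 35, and of the extended genes it was higher in 12 and lower in 13 of 25. The higher extended sum in Control was therefore not shared by most extended genes. The compact sums rested on 59.4 to 127 counts in the fresh libraries and 35.0 to 82.8 in the cultured ones.

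**Figure D5:**
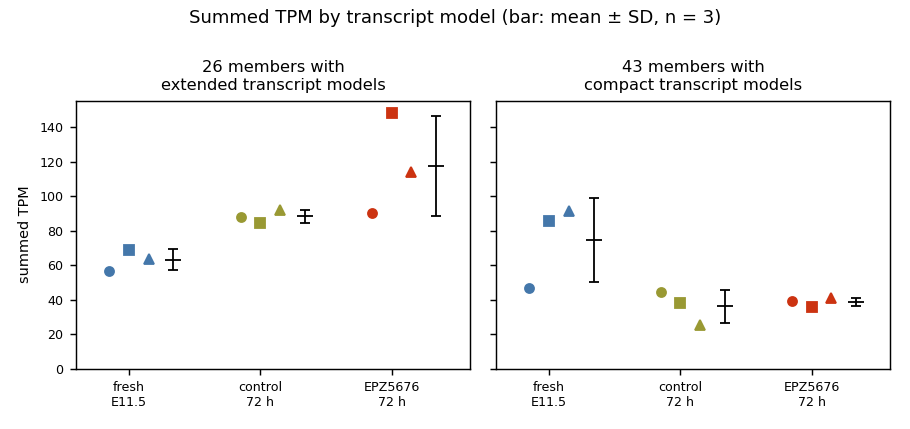
Summed TPM (y axis, from 0) of 26 histone genes with extended and 43 with compact transcript models, by group (x axis); points are libraries and bars the mean ± SD (n = 3). Extended models ran from 56.95 to 69.15 TPM in fresh and from 84.52 to 148.27 in cultured lung, and compact models from 46.66 to 91.63 and from 25.53 to 44.60.

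Near-identical copies showed how estimated the single values are. Hist2h2aa1 and Hist2h2aa2 share 89.4% and 100% of their stretches, and each library with counts for the pair gave them to 1 copy. In EPZ5676 2 the pair's 5.54 counts were all on Hist2h2aa2, and in EPZ5676 3 its 7.87 counts were all on Hist2h2aa1. Likewise Hist1h2ao had counts only in EPZ5676 1, the treated library where its copy Hist1h2ap had none. Summed, Hist1h2ao and Hist1h2ap had 3.26 ± 2.84 TPM in E11.5, 1.84 ± 1.63 in Control and 1.88 ± 0.51 in EPZ5676, which overlapped.

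Whether the libraries hold RNA without a poly(A) tail could bear on the levels of the histone genes. That was not tested, and no source used here names the selection step. Rn7sk, an abundant non-coding RNA without a tail, had 0, 0 and 6.73 TPM in E11.5, 14.24, 16.89 and 27.83 in Control, and 9.48, 22.52 and 5.37 in EPZ5676. It was higher in Control than in E11.5 by 3.02 ± 0.96 on the log2 scale, with an edgeR adjusted p of 0.0308, a call lost without E11.5 1, E11.5 2, Control 2 or Control 3 (0.0523 to 0.103). Rmrp, the RNA of RNase MRP, was at 0 in 5 libraries and reached 2.06 TPM. Of 6 such RNAs, only Rn7sk passed the count filter. The 6 together had 65.85, 459.02 and 136.86 TPM in E11.5, 87.99, 18.41 and 105.6 in Control, and 13.35, 26.01 and 180.87 in EPZ5676. These sums overlapped between groups, and Rn7sk was a small part of the fresh ones. Summed, the variants listed as replication-independent, whose mRNAs are mostly polyadenylated, had 4348 to 4985 TPM, against 104 to 184 TPM for the 69 cluster genes.

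Genes that act on histone mRNA and histone supply had more falls than rises in cultured lung. Of 16 genes for histone mRNA transcription and 3′ processing, 1 rose and 6 fell in Control against E11.5 by edgeR, beside 21.1% and 16.6% of all genes, with a median log2 fold change of -0.18 against 0.02 over all genes. Lsm10, a U7 snRNP subunit, rose by 0.68 ± 0.18 with an edgeR adjusted p of 0.0148, a call lost in 5 of 15 alternatives, with adjusted p of 0.0508 to 0.122: no filter, both limma fits, and without E11.5 2 or Control 2. Casp8ap2, also named FLASH, which works in the same cleavage step, fell from 38.3 ± 5.10 to 27.5 ± 3.72 TPM, and Ccne1, the cyclin that drives histone transcription through NPAT, from 64.5 ± 5.28 to 38.9 ± 8.01 TPM. Slbp, the stem-loop binding protein, was at 160 ± 1.47 TPM in E11.5 and 136 ± 8.30 in Control, with an edgeR adjusted p of 0.220. It was chosen for its role and lies outside the rule for named genes. Between EPZ5676 and Control, edgeR and DESeq2 each called 0 of the 16, and 0 had an unadjusted edgeR p under 0.05.

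Histone chaperones carry new histones to DNA. Of 18 such genes, 8 fell and 0 rose in Control against E11.5 by edgeR, beside 16.6% and 21.1% of all genes, with a median log2 fold change of -0.27. DESeq2 called 9 lower and 0 higher, beside 2597 and 3067 of all 15158 genes. By edgeR, 11 had an unadjusted p under 0.05, as did 7141 of all genes. Nasp, a chaperone of H3 and H4, had 623, 733 and 706 TPM in E11.5, 262, 310 and 327 in Control, and 261, 224 and 268 in EPZ5676. It fell by 1.26 ± 0.15 on the log2 scale in Control against E11.5, with an edgeR adjusted p of 0.000125. Against Control, EPZ5676 libraries had -0.32 ± 0.14, with an edgeR adjusted p of 0.713. Nap1l1, which carries H2A and H2B, fell by 0.71 ± 0.12 and its relative Nap1l4 by 0.65 ± 0.08 in Control against E11.5.

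S phase genes were mostly lower in culture, while the summed H1 level was higher through Hist1h1c. The mean TPM of 4 of the 6 H1 genes was lower in Control than in E11.5. Of 20 genes of DNA replication, 13 fell and 1 rose in Control against E11.5 by edgeR, beside 16.6% and 21.1% of all genes. Their median log2 fold change was -0.35, against 0.02 over all genes. Rrm2, a ribonucleotide reductase subunit, fell from 192 ± 23.6 to 87.7 ± 18.2 TPM, with an edgeR adjusted p of 0.000146. Mcm3, a subunit of the replicative helicase, fell by 0.52 ± 0.10 and Uhrf1, which recruits the maintenance DNA methyltransferase, by 0.51 ± 0.13. Between EPZ5676 and Control edgeR and DESeq2 each called 0 of the 20. Of them, 1 had an unadjusted edgeR p under 0.05, as did 1052 of all 15158 genes. All 20 values lay below 0 there, as did 7697 of all 15158 genes. The median of the 20 was -0.17, against -0.004 over all genes. Fen1 had the smallest p there, at -0.24 ± 0.10 with an edgeR adjusted p of 0.684. The part of S phase in the histone values was not tested.

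The variants listed as replication-independent moved in both directions. Of 11 variant genes, 1 rose and 3 fell in Control against E11.5 by edgeR, beside 21.1% and 16.6% of all genes. H2afj, a replication-independent H2A, rose from 9.62 ± 1.86 to 22.5 ± 6.0 TPM, with an edgeR adjusted p of 0.00242. H2afy2, which encodes a macroH2A, fell from 207 ± 11.1 to 104 ± 7.85 TPM, with an edgeR adjusted p of 3.06e-05, and Cenpa, the centromeric H3, fell from 158 ± 11.4 to 110 ± 21.6 TPM. H1f0, the linker histone of non-dividing cells, had 256 to 287 TPM in E11.5, 339 to 408 in Control and 333 to 676 in EPZ5676. Its log2 fold change against E11.5 was 0.53 ± 0.23 in Control, with an edgeR adjusted p of 0.0938, and it rose by 0.87 ± 0.23 in EPZ5676, with 0.0136. The second call was lost with no filter, with only the 6 libraries compared, and without E11.5 2 or E11.5 3 (edgeR adjusted p 0.0520 to 0.0732). In every library H1f0 alone was more abundant in TPM than all 6 cluster H1 genes together.

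Genes of H3K79 methylation did not pass the test between the cultured groups. Between EPZ5676 and Control, edgeR and DESeq2 each called 0 of 5 and 0 had an unadjusted p under 0.05, and Dot1l, the target of the agent, had the smallest p. It had 23.09, 23.05 and 21.22 TPM in E11.5, 30.04, 23.21 and 18.83 in Control, and 24.67, 17.35 and 20.28 in EPZ5676, which overlapped. Its log2 fold change for EPZ5676 against Control was -0.20 ± 0.10, with an edgeR adjusted p of 0.743. Mllt3, a partner of DOT1L in transcription elongation, fell by 0.44 ± 0.10 in Control against E11.5, with an edgeR adjusted p of 0.00734. Mllt6 rose by 0.35 ± 0.12 in EPZ5676 against E11.5, with 0.0354, a call lost in 7 of 15 alternatives, both limma fits among them, with adjusted p of 0.0802 to 0.211.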

How the data were processed

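RNA-seq of mouse lung was analysed from gene tables in 3 groups of 3 libraries, taken from the sample titles. TRIzol was used to isolate total RNA and a Vazyme VAHTS kit to make libraries, per the labels' protocols. The authors deposited expected counts, which divide reads between genes with shared sequence, and TPM, abundance scaled for transcript length and depth. RSEM, Bowtie2 and mm10 are named, per the submitters' processing notes, and the selection of RNA and the strand setting are not given in the sources used here. All identifiers matched GENCODE M21 (GRCm38, the assembly of mm10), from which positions, stem-loops and shared 50-base stretches were computed. Promoters were from RefSeq (GRCm38.p6).

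Expected counts were rounded, filtered with filterByExpr (minimum count 10, leaving 15158 genes), scaled by TMM and fitted over all 9 libraries with 6 residual degrees of freedom (edgeR 4.0.16, glmQLFit with robust estimates and glmQLFTest, two-sided, Benjamini-Hochberg over all genes tested, threshold 0.05). Levels are TPM. Summed levels were given without a test. Depth was 6509563 to 9861452 counts, and reads are not independent molecules, so the floors (3 counts) cover only counting error. The members, gene lists and tests were chosen with earlier results of these data known. Named genes were the 3 highest by mean TPM in each type, up to 3 rises and 3 falls past the threshold per comparison (otherwise the 3 smallest p), and from each other list up to 3 past the threshold (otherwise the 1 smallest p). Hist1h1e, Hist1h2ae, Slbp, Rmrp, the copies of a gene and genes that fill a count of 10 or fewer lie outside this rule. Alternatives were DESeq2 1.42.0, scaling by RLE or upper quartile, no filter, at least 50 counts in 3 libraries, only the 6 libraries compared, the replicate number as a block, limma 3.58.1 on log2(TPM + 1) and log2(TPM + 0.1), each library left out, and sums in TMM-scaled CPM or over tested genes. The count models were tested on simulated data. No replicates were duplicates, since chi-square per degree of freedom was 2.56 to 28.5. Figures were drawn with matplotlib 3.10.9.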

Additional observations from a re-analysis of the deposited data

How the results depend on the processing

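Depth and shared sequence limit single genes, and 58 of 69 did not pass the count filter. For Control against E11.5, 3 histone genes were higher under every library left out and every alternative run, except 4 with no filter and in both limma fits. Lower calls were 0, but 3 with no filter and 0 to 1 with a library left out, where Hist1h2ae passed without E11.5 1, Control 1, Control 2 or Control 3. For EPZ5676 against E11.5, 5 were higher, 7 with no filter, 6 with only the 6 libraries compared, 3 with the 50-count filter, which tested 4 genes, 4 by limma on log2(TPM + 1), where Hist1h1d was lost (adjusted p 0.0561), and 4 to 5 with a library left out. The 1 lower call was 0 by DESeq2, 0 with the 50-count filter, 0 with the replicate block, 4 with no filter and 0 to 2 with a library left out. With no filter Hist1h2ag was not called (edgeR adjusted p 0.102), and the 4 were Hist1h2ae, Hist1h2bj, Hist1h2bk and Hist2h3b. The 7 higher and 4 lower calls there were of 62 histone genes, beside 3374 and 2423 of all 30385 genes. Over all genes, higher calls were 3641 of 14783 with only the 6 libraries compared and 2695 of 11818 with the 50-count filter. By limma on log2(TPM + 1) they were 2508 of 15158. For EPZ5676 against Control, no histone gene was called under any alternative run. Over all genes, higher calls there were 67 by DESeq2, 67 with no filter, 1 with the replicate block and 0 to 26 with a library left out (26 without EPZ5676 2). Lower calls there were 16 by DESeq2, 9 with no filter and 0 to 1 with a library left out. For Control against E11.5 over all genes, higher calls were 2119 by limma on log2(TPM + 1) against 3202, and lower calls 1648 to 2472 with a library left out against 2509 (1666 without E11.5 2 and 1648 without E11.5 3).

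The replicate numbers gave no clear pairing of the samples, though 3 libraries per group cannot exclude one. Correlations of same-numbered deviations were -0.10 to 0.46, 1 of 9 was over 0.1, and 2 libraries correlated best with their own number. The highest, 0.46, was that of Control 1 with EPZ5676 1. The block changed no other histone call. The summed log2 ratio of Control to E11.5 was -0.15 for all genes of the family in TPM, 0.31 in CPM and 0.49 over tested genes. It was 1.14 for H1 and 1.46 over tested H1 genes, -0.36 for H2A and 0.22 in CPM, and -0.21 for H2B and 0.51 over tested H2B genes. For EPZ5676 against E11.5 the family was at 0.18, then 0.69 and 0.82, H2A at -0.19 and 0.29 in CPM, and H2B at 0.10 and 0.94 over tested genes. No H3 gene was tested, so that sum had no such value. Directions turned with a library left out for Hist1h2bh (-0.97 to 0.091) and Hist1h2br (-1.54 to 0.010) in Control against E11.5. They also turned for Hist1h4i (-0.19 to 0.65 in Control against E11.5, -0.83 to 0.16 in EPZ5676 against Control, -0.62 to 0.50 in EPZ5676 against E11.5) and Hist2h2be (-0.053 to 0.35 and -0.13 to 0.26 in the first 2 of these). None of these values had passed a test, and the cause of the changes was not tested.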
